A study of Mus musculus with 6 samples.

Results

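The adhesion G protein-coupled receptors described here are encoded by 27 genes of the 21779 protein-coding genes of the RefSeq table that lie in the map (mm10). They are the protein-coding symbols that begin with Adgr, a subfamily letter and a number. The family was selected by symbol, but with the map in view, because Adgrg1 carries one of the longest runs of states 3 to 6. The values of the map therefore chose the family, and they are given as a description with no test. The pattern leaves out the 3 Celsr genes, which belong to the same receptor class, and a pseudogene.

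The series profiled histone variant H3.3 by ChIP-seq in hematopoietic stem cells (HSCs), sorted from the marrow of mice of strain C57BL/6, with 2 H3.3 ChIP libraries from HIRA KO cells, 2 from WT cells, and 1 input for each genotype. HIRA is a chaperone that places H3.3 in chromatin. Hira was deleted conditionally in blood, and the same protocol stands for HIRA KO and WT mice alike, 2 injections of 20 ug poly(I:C) with cells taken 7 days after the first. What drives the deletion is not stated in the labels, and chromatin was cut with micrococcal nuclease before ChIP with a rat monoclonal antibody. The only values analysed were 1 map of the genome in 18 numbered chromatin states, in bins of 200 bp, whose file name labels it WT HSC H3.3. It has no replicates, no depth and no knockout values, so the comparison of HIRA KO with WT was not analysed here, and no difference below has an error over animals.

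Adhesion receptors join a long extracellular part, which binds neighbouring cells or matrix, to a membrane-spanning receptor core. Most cut themselves next to the membrane, and the freed end of the core acts as a tethered agonist that couples to G proteins. In blood, ADGRG1 (GPR56) marks stem cells, ADGRE1 (F4/80) marks mouse macrophages and ADGRE5 (CD97) is carried by many leukocytes, while latrophilins (ADGRL1 to ADGRL3) and the ADGRB receptors act at synapses.

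The states carry no names and are described by where they lay. States 3 to 6 covered 1.13% of the genome and held an annotated start of 51.6% of all 17492 genes with a start sequence. Starts were annotated for 20 of the 27 receptors (24 starts). For Adgra2, Adgrb1, Adgrd1, Adgre1, Adgre5, Adgrf2 and Adgrf3 the ends of the gene record were read instead. Of the HSC markers with an annotated start, 6 of 6 had it in states 3 to 6, among them Gata2, Kit and Procr. The count was 1 of 1 for endothelium (Kdr), 0 of 4 for neutrophils and macrophages, and 0 of 2 each for the erythroid, B cell, T cell, brain and stroma markers.

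The bases before the starts are shown first because the receptors differ there in the density of CpG dinucleotides, which are printed in capitals. Each line holds the 250 bases upstream of a start, 5′ to 3′ on the gene's strand, from RefSeq on GRCm38.p6, the assembly of mm10. The set contrasts both starts of Adgrg1 with its tandem neighbour Adgrg3, with Adgrl4 and Adgra3, whose starts also lay in state 5, and with starts in states 9, 11 and 18. Adgrl4, Adgra3 and Adgrg6 were added after their values were seen.

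Adgrg1 first start, state 5, chr8:94976859-94977108, plus strand: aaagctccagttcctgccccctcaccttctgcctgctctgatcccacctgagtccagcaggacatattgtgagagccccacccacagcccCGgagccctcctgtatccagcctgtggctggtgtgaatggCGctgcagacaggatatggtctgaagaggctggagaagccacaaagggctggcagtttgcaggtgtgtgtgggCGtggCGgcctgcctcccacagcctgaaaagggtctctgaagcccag
Adgrg1 second start, state 5, chr8:94984149-94984398, plus strand: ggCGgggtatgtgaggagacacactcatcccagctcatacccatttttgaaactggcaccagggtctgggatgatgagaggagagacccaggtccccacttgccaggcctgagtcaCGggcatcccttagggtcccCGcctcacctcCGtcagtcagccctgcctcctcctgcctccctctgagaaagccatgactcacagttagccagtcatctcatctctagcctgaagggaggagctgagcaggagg
Adgrg3 start, state 16, chr8:95017442-95017691, plus strand: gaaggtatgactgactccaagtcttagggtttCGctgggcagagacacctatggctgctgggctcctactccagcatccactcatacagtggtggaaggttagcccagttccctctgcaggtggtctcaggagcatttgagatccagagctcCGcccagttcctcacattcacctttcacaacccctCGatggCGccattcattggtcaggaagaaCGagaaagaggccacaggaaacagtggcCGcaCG
Adgrl4 start, state 5, chr3:151437632-151437881, plus strand: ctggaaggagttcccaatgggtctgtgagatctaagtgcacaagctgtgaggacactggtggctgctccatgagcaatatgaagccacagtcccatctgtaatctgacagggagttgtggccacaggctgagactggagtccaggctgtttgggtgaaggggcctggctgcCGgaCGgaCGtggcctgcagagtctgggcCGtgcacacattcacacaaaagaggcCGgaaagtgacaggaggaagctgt
Adgra3 start, state 5, chr5:50058997-50059246, minus strand: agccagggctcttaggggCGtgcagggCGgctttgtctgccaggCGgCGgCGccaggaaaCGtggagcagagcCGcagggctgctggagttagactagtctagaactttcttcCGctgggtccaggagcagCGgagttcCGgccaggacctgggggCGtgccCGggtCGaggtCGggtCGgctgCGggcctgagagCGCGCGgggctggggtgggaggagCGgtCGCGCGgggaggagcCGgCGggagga
Adgrg6 start, state 9, chr10:14545037-14545286, minus strand: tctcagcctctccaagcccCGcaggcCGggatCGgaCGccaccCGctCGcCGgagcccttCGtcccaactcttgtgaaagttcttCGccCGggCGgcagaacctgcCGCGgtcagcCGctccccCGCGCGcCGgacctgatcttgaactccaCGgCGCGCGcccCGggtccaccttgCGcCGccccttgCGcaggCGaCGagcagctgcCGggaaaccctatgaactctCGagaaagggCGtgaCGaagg
Adgra1 start, state 11, chr7:139833924-139834173, plus strand: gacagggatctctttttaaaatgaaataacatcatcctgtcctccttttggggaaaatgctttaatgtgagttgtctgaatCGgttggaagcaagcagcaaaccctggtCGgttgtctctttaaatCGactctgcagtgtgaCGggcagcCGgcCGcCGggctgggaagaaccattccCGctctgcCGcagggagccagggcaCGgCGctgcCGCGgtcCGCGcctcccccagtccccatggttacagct
Adgrf4 start, state 18, chr17:42692285-42692534, minus strand: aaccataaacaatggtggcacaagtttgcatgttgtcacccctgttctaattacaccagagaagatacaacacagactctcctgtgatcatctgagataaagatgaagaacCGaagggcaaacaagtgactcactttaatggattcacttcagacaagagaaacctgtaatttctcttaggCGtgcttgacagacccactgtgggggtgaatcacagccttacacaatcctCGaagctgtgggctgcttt

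The 4 CpGs before each Adgrg1 start and the 5 before Adgrl4 stand against 25 before Adgra3 and 32 before Adgrg6. There were 7 before Adgrg3, 15 before Adgra1 and 3 before Adgrf4, so low counts are not particular to Adgrg1 and Adgrl4.

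Few adhesion receptor genes started in states 3 to 6. An annotated start lay in those states for 5 of 20 receptors (25%), Adgra3, Adgrg1, Adgrg2, Adgrg7 and Adgrl4, against 51.6% of all genes. States 9 to 11 held a start of 8 of 20 (40%), against 18.9% of all genes. Of the markers with an annotated start, these states held 2 of 2 each for brain, T cell and stroma, and 1 of 2 for B cell. The count was 0 of 6 for HSC, 0 of 4 for neutrophil and macrophage, 0 of 2 for erythroid and 0 of 1 for endothelium. State 18, the commonest state of the genome, held a start of 4 of 20 (20%), beside 20.3% of all genes, which is close to the background. Adgrf5 has a start in state 10 and another in state 18 and counts in both classes. The other 4 receptors started in state 16 (Adgre4, Adgrf1 and Adgrg3) or state 17 (Adgrl2). Read by record ends, at least 1 end lay in states 3 to 6 for 25.9% of the receptors (7 of 27), against 47.6% for all genes. For states 9 to 11 this was 37% (10 of 27) against 23.9%, and for state 18 it was 51.9% (14 of 27) against 34.3%. The 2 readings differ for state 18, and record ends include the 3′ ends and the 7 receptors without an annotated start.

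Over the gene record with 10 kb on each side, the receptors were rich in state 18 and poor in states 3 to 6. The median receptor had 47.5% of its window in state 18, against 20.6% for the median gene, with a range from 0% to 98.3%. State 18 filled over 50% of the window of 13 of 27 receptors (48.1%), against 28.6% of all genes. States 9 to 11 did so in 3 of 27 (11.1%), against 7.24% of all genes, and these were Adgra1, Adgrb1 and Adgrb2. The median share of states 3 to 6 was 0% over the receptors and 2.78% over all genes. The receptor records are long, with a median of 73.3 kb against 17.2 kb for all genes, so length may bear on these shares. By record length, shares were read for state 18 only. Within records of 10 to 50 kb, the medians for state 18 were closer, at 17.2% for 11 receptors and 14.9% for 8984 genes. In records of 50 to 150 kb they were 51% for 12 receptors and 16.4% for 3476 genes, and in longer records 56.4% for 4 receptors and 50.8% for 1459 genes. The median share of states 9 to 11 was 6.72% over the receptors and 0.965% over all genes.

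**Figure D1:**
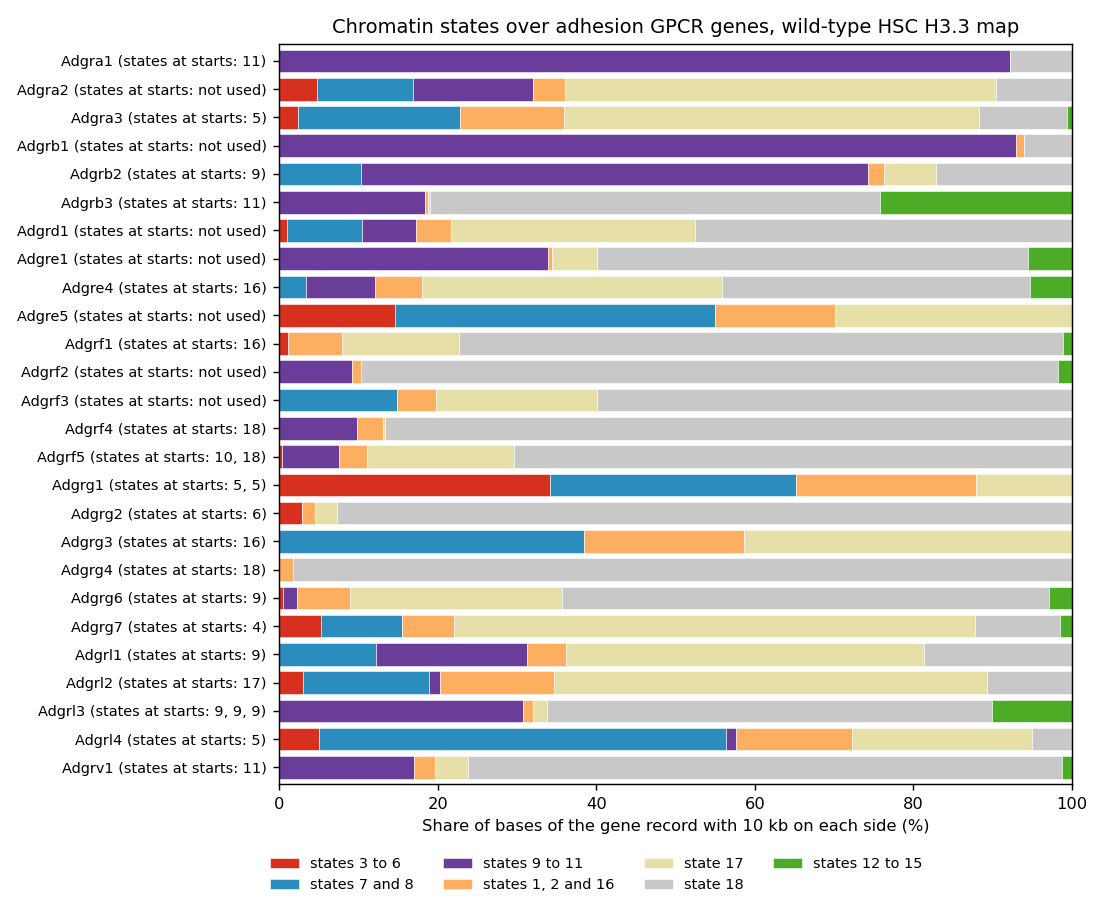
Share of window bases (x axis, percent) in 7 classes of states for each receptor reported here (rows), with the states at annotated starts in brackets. Adgrg1 has the widest band of states 3 to 6, at 34.1%, Adgra1 and Adgrb1 are 92.2% and 92.9% states 9 to 11, and Adgrg4 is 98.3% state 18.

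A run is an unbroken stretch of bins in states 3 to 6, kept whole where it crosses a window edge. A run touched the window of 13 of 27 receptors (48.1%), against 63.1% of all genes. It reached the gene record itself in 11 of them, since in the other 2, Adgrf1 among them, it lay in the flank. Among records of 10 to 50 kb a run was found for 4 of 11 receptors against 72.2% of genes. The count was 8 of 12 against 76.7% among records of 50 to 150 kb, and 1 of 4 against 68.5% among longer ones. At the other extreme, runs of 5 kb or more touched 3 of 27 receptors (11.1%), Adgrg1, Adgrl4 and Adgrl2, against 1.93% of all genes. Because a long run at Adgrg1 was the reason for choosing the family, nothing is read from that share.

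**Figure D2:**
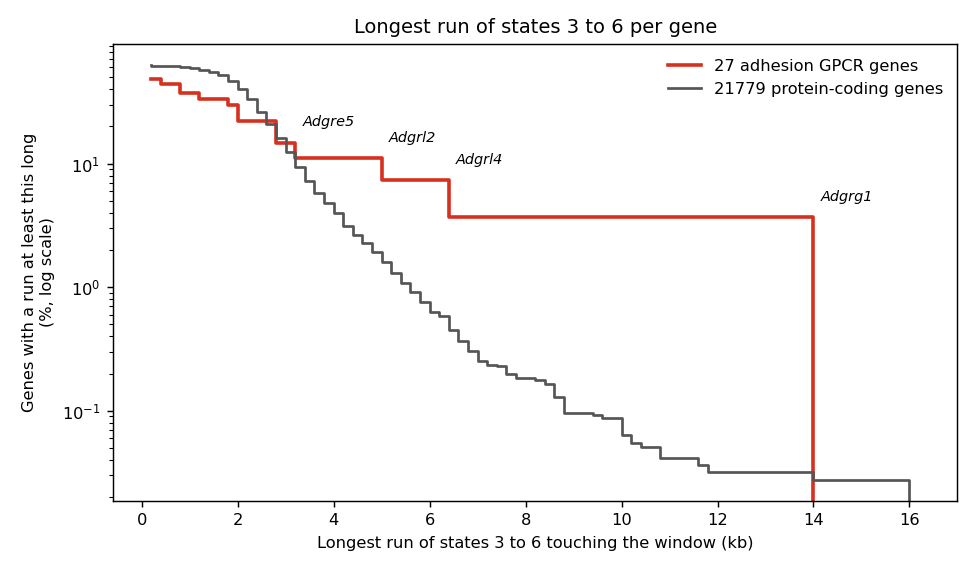
Percentage of genes (y axis, log scale) whose longest run of states 3 to 6 is at least the length on the x axis (kb), for the 27 receptors in red and all protein-coding genes in grey. The receptor curve starts below that of all genes, at 48.1% against 63.1%, and meets it near 3 kb, with its steps beyond 4 kb made by Adgrl2 (5 kb), Adgrl4 (6.4 kb) and Adgrg1 (14 kb).

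Adgrg1 encodes GPR56, a receptor for collagen III and transglutaminase 2 that is used as a marker of stem cells. Its record spans chr8:94974756-95014208 and has 2 annotated starts, 7.29 kb apart. Both lay in state 5, inside a run of 14 kb at chr8:94975801-94989800. The run began 1.31 kb before the first start and ended 5.4 kb after the second. The outer end of the record, by contrast, fell in state 17, so reading record ends alone misses this run.

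The Adgrg1 run held 10.8 kb of state 5 and 3.2 kb of state 3, with no bin of states 4 or 6. Of 15998 runs in the genome 2 were longer, each of 16 kb, at Hoxa9 with Hoxa10 and at Meis1, all genes of transcription factors known from HSCs. The next longest lay at Gata2 (11.8 kb) and Nkx2-3 (11.6 kb). Runs made up of states 3 and 5 alone were 24% of all runs and 14.5% of the 283 runs of 5 kb or more. Among such runs the one at Adgrg1 was the longest, ahead of runs of 8.8 and 8.6 kb.

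Farther into the Adgrg1 gene, states 4 and 6 appeared beside state 5, with states 7 and 8 in the gaps. After 0.4 kb of state 7, a second run of 4.4 kb followed, with 2 kb of state 6, 1.8 kb of state 5 and 0.6 kb of state 4. Short runs of 1.2 and 0.8 kb came next, the last of states 3 and 5 alone, so that the 4 runs covered 20.4 kb (84.3%) of a span of 24.2 kb. Beyond that span came 1 kb of state 16, and then states 7 and 8 without a break past the 3′ end of the record. Within the whole window Adgrg1 had 34.1% in states 3 to 6, 31.1% in states 7 and 8, and no bin in states 9 to 15 or 18.

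The next gene downstream of Adgrg1 is also an adhesion receptor, with no bin of states 3 to 6 in its window. Adgrg3 (GPR97), a receptor of neutrophils and other leukocytes, begins 2.9 kb beyond Adgrg1. Its start lay in a state 16 segment of 4.4 kb, its record at chr8:95017113-95045250 held no run of states 3 to 6, and its window was 38.4% states 7 and 8 and 41.3% state 17. The Adgrg3 window shares 17.4 kb with that of Adgrg1, so part of its states 7 and 8 lies over the Adgrg1 3′ end.

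Upstream of Adgrg1 the map held a run of 1.4 kb that ended 21.7 kb upstream of the first Adgrg1 start. It also held a state 1 segment of 3.4 kb that ended 9.3 kb upstream. Neither overlapped a protein-coding record.

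**Figure D3:**
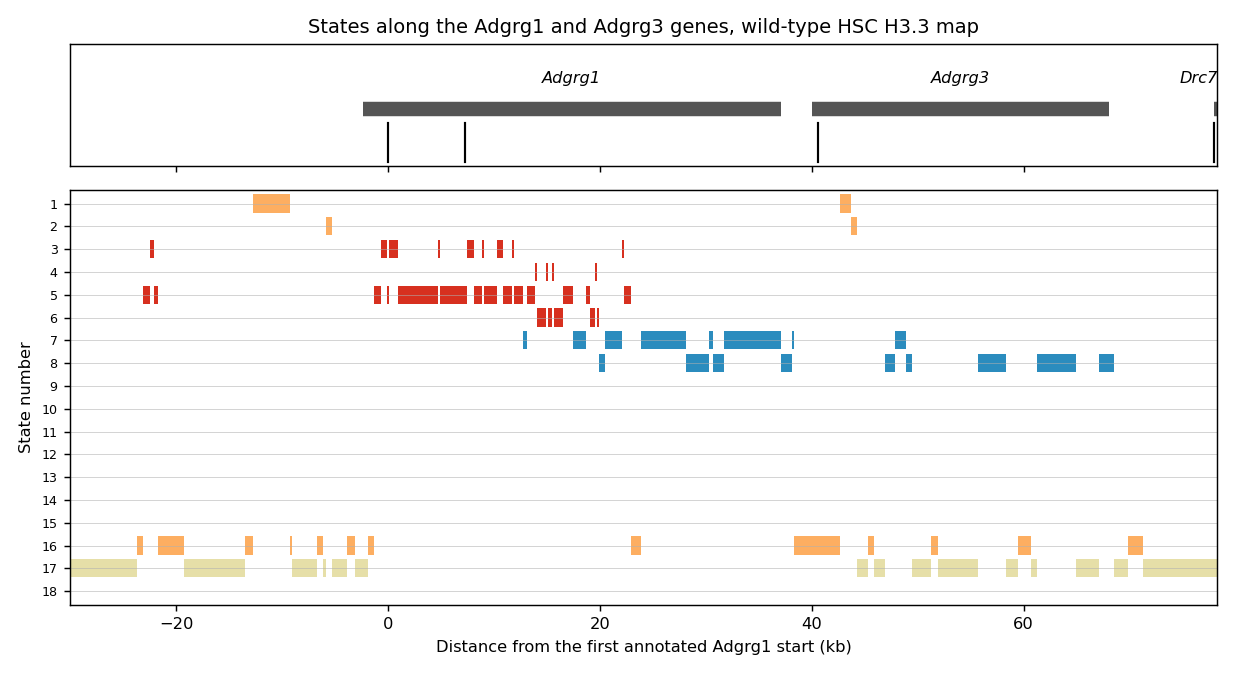
Segments by state number (y axis, state 1 at the top) against distance from the first annotated Adgrg1 start (x axis, kb), with gene records as grey bars above and annotated starts as ticks. States 3 and 5 fill the first part of Adgrg1 (14 kb), states 4 to 8 alternate farther in, with a last short stretch of states 3 and 5 (0.8 kb), and states 7 and 8 cover the 3′ part, while Adgrg3 starts in state 16 and holds no bin of states 3 to 6.

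By the summed difference over the 18 state shares, which can run from 0 to 200 percentage points, the genes most like Adgrg1 among 21778 were Hnrnpa1 (41.2 points), Nfe2 (41.3), Cmtm7 (51.1), Ppp1ca (53.7) and Dapp1 (54.1). The Hnrnpa1 and Nfe2 windows overlap by 18.6 kb. The closest receptor was Adgrl4, at 74.7 points and rank 80, then Adgrg3 at 95.6 points and rank 635. The Adgrg3 window shares 17.4 kb with that of Adgrg1, so part of their likeness is the same bins. Likeness here covers state shares in single windows only.

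Of the other blood receptors, Adgre5 had a run on its record, and the macrophage and myeloid receptors Adgre1 and Adgre4 had none. Adgre5 (CD97, a receptor for CD55) had a run of 3.2 kb over the end of its record at chr8:83738601-83741800, with 2.4 kb of state 3 and 0.8 kb of state 5. Its window was 40.3% states 7 and 8 and 14.7% states 3 to 6, the second largest share of the family after Adgrg1. A run as long was found in 12.9% of 7902 genes of like length (0.5 to 2 times). The record of Ddx39a overlaps its other end, so part of these states cannot be assigned to Adgre5 alone.

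Adgre1, whose product F4/80 defines mouse macrophages, had both record ends in state 18. Its window was 54.4% state 18 and 33.9% states 9 to 11, with the longest such domain 12.4 kb, and held no run. Adgre4, a myeloid receptor in mice, started in a state 16 segment of 3.4 kb and had no run either, with 38.9% state 18 and 37.7% state 17.

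Among receptors of endothelium, Adgrl4 stood apart. Adgrl4 (ELTD1), known for its part in vessel sprouting, had a run of 6.4 kb at chr3:151436801-151443200 that reached 1.08 kb before and 5.32 kb after its start. Like the Adgrg1 run it held only states 5 (4.2 kb) and 3 (2.2 kb). States 7 and 8 covered 51.3% of its window, the highest share of the 27, and 0.618% of 3724 genes of like length had a run as long. Of the endothelial markers, Kdr had its start in state 5, as Adgrl4 did, within a window whose longest run was 1 kb. The longest run was 0.8 kb for Cdh5 and 0 kb for Pecam1, neither with an annotated start. The part of other cell types in the Adgrl4 states was not tested.

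The other endothelial receptors differed from it. Adgra2 (GPR124), which acts in brain vessel growth, had record ends in states 9 and 8 and a run of 1 kb inside the gene, while its 1.8 kb run overlapped Brf2. Adgrf5 (GPR116), a regulator of lung surfactant, was 70.4% state 18, with starts in states 10 and 18 and a run of 0.4 kb.

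Receptors of the brain mostly started in states 9 to 11. Of the 6 with an annotated start, 5 had it there, beside 18.9% of all genes, and Adgrl2 was the exception. Adgra1 started within a state 11 segment of 50.8 kb, its record ended in state 18, and 92.2% of its window was in states 9 to 11. Adgrb1 (BAI1, a receptor for apoptotic cells) had 92.9% of its window there and Adgrb2 63.9%. The longest domains of states 9 to 11 at these genes were 50.8 kb for Adgra1, 30.6 kb for Adgrb1 and 19 kb for Adgrb2, against a median of 4.2 kb over the receptors and 1 kb over all genes.

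The longest genes had a domain of states 9 to 11 at the start and state 18 over most of the window. States 9 to 11 were not confined to the starts, and covered 18.3% of the Adgrb3 window and 30.8% of the Adgrl3 window. The longest such domain at Adgrl3, of 14.4 kb at chr5:81494201-81508600, lay away from its starts. Adgrb3 (BAI3), of 767 kb, started in a state 11 segment of 9.2 kb, with 56.7% state 18 and 24.3% states 12 to 15 over the window. Adgrl3 (latrophilin 3), of 809 kb, had its 3 starts in 1 state 9 segment of 2.4 kb, in a domain of 12.2 kb, and was 56.1% state 18. The nearest bin of states 3 to 6 lay 3208 kb from the first Adgrl3 start and 1124 kb from that of Adgrb3. Adgrl1, of 41.9 kb, started in a state 9 segment of 3 kb and was 45.2% state 17.

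Adgrl2, also a latrophilin, had a run of 5 kb over the 5′ end of its record, at chr3:148986401-148991400, with 1.6 kb of state 4 and 1.8 kb of state 5. Its annotated start lies 31.8 kb from the nearest such bin, in state 17. No other protein-coding record overlapped the run, and 2.63% of 2437 genes of like length had a run as long. The gene lies on the minus strand, so the run covers the 5′ end of the record, and the annotated start lies inside the record. Which start is used in these cells was not tested, so the run is described by position only.

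**Figure D4:**
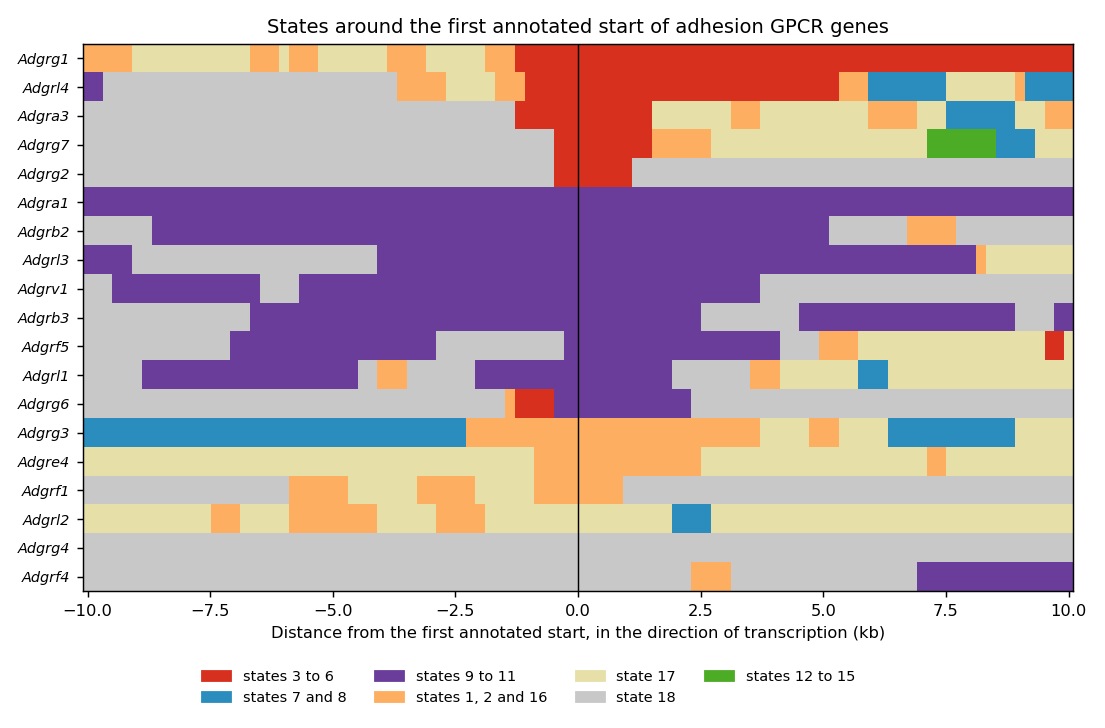
States in bins of 200 bp (colours) within 10 kb of the first annotated start (x axis, kb, transcription to the right) of the receptors reported here that have a start sequence, sorted by the class at the start. The runs of states 3 to 6 at Adgrg1 and Adgrl4 extend mostly downstream (5.32 kb for Adgrl4), those at Adgra3, Adgrg7 and Adgrg2 stay within 2 kb of the start, and Adgra1 is in states 9 to 11 throughout.

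The median receptor of other tissues had 75% of its window in state 18, against 20.6% for the median of all genes. Of 8 with an annotated start, 3 had it in states 3 to 6, beside 51.6% of all genes. Adgra3 (GPR125) had its start in a run of 2.8 kb. Adgrg2, a receptor of the epididymis on chromosome X, had a run of 1.6 kb made of state 6 alone at its start, in a window 92.7% state 18. Adgrg7, known from the intestine, had a run of 2 kb at its start, mostly state 6 (1.4 kb). The longest runs in the Adgrg2 and Adgrg7 windows, of 2 and 2.8 kb, held the starts of Phka2 and Tfg.

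Adgrg6 (GPR126), needed for myelination by Schwann cells, started in a state 9 segment of 1.4 kb beside a run of 0.8 kb, which lay 0.6 kb from the start. Adgrv1, an inner ear receptor, started in a state 11 segment of 9.4 kb and was 75% state 18. Adgrd1 (GPR133) had both record ends in state 17 and an internal run of 1.2 kb. Adgrg4, on chromosome X, was 98.3% state 18, in 8 segments over 106 kb, whereas Adgrg1 had 58 segments over 59.8 kb.

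The 5 receptors of subfamily F had 59.9 to 88% of their windows in state 18. They were Adgrf1, with a start in a state 16 segment of 1.8 kb, Adgrf5, Adgrf4, with a start in a state 18 segment of 31.8 kb, and Adgrf2 and Adgrf3, with both record ends in state 18. The Adgrf2 and Adgrf4 windows share 23.6 kb and are not independent. Adgrf4, Adgrf2, Adgrf1 and Adgrf5 all lie within chr17:42656208-43459557, so the 5 windows do not stand for 5 separate regions.

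CpG content before the starts in states 3 to 6 was lower for some receptors than for most such starts of the genome. The ratio of observed to expected CpG was 0.07 at Adgrg7, 0.17 and 0.18 at the Adgrg1 starts, 0.26 at Adgrl4, 0.73 at Adgrg2 and 0.86 at Adgra3. These 6 starts in states 3 to 6 thus fell into 4 below 0.3 and 2 above 0.7. The 4 include both Adgrg1 starts, which lie in the same run and are not independent. Across all 10693 starts in states 3 to 6 the median ratio was 0.76, and 6.43% lay below 0.3. In runs of 5 kb or more the median of 313 starts was 0.79, and 22 (7.03%) lay below 0.3, which includes both Adgrg1 starts and that of Adgrl4.

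Receptor starts in states 9 to 11 had more CpG. Their 10 starts ranged from 0.28 at Adgrf5 to 1.08 at Adgrg6, with a median of 0.74, against 0.49 over 3841 such starts in the genome. The 4 starts in state 18 had a median of 0.22, against 0.16. In states 1, 2 and 16 the median was 0.20 for 3 receptor starts, against 0.22 over all. The limit of 0.3 was set after the values were seen, and the 3 Adgrl3 starts lie close together.

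**Figure D5:**
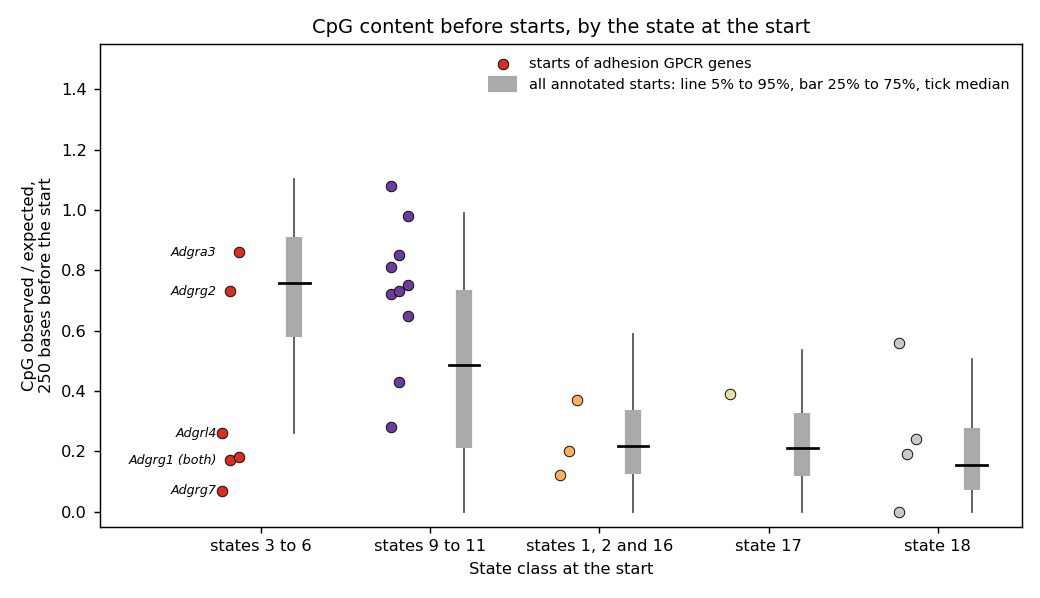
Ratio of observed to expected CpG in the 250 bases before each start (y axis), by the class of the state at the start (x axis), with receptor starts as points on the left and all annotated starts as bars on the right. In states 3 to 6 the Adgrg1, Adgrl4 and Adgrg7 starts lie at 0.07 to 0.26, below the genome median of 0.76, and in states 9 to 11 the receptor median of 0.74 lies above 0.49.

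Cores bound by blood transcription factors were searched on both strands of the same 250 bases. The ETS core GGAAGT was found in 4 of the 24 receptor sequences and in 20.4% of all 21263. The core of GATA factors, AGATAA, was found in 2 of 24 and in 8.81% of all. The RUNX core TGTGGT was in 3 of 24 and in 12.4% of all, and the E-box CAGCTG in 3 of 24 and in 12.1% of all. None was in either Adgrg1 sequence or in that of Adgrl4, which says only that these letters are not in these windows.

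The ligands and partners of these receptors differed in their states. Of 18 ligand and partner genes with an annotated start, 5 had it in states 3 to 6, Cd9, Cd55, Cd81, Flrt3 and Prnp, beside 51.6% of all genes. In states 9 to 11 there were 9 of 18, beside 18.9% of all genes. Cd81 and Cd9, tetraspanin partners of GPR56, had runs of 3.8 and 3 kb. Tgm2, a GPR56 ligand, had a run of 2.6 kb and 49.6% of its window in states 7 and 8, whereas Col3a1, which encodes the collagen ligand, started in state 16 and was 60.6% state 18. Cd55, the ligand of CD97, started in state 6. Of the teneurins, ligands of latrophilins, Tenm1, Tenm2 and Tenm3 started in state 18 and Tenm4 in states 11 and 10.

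Of the G proteins and effectors, 14 of 14 genes with an annotated start had it in states 3 to 6, against the 51.6% of all genes, and 19 of 19 had a run in the window, against 63.1%. They include Gna13 and Gna12, which couple adhesion receptors to RhoA, with runs of 4.4 and 1.8 kb, Rhoa itself (3.8 kb) and the exchange factor gene Arhgef1 (3.4 kb). Gnas, with 4 annotated starts, counts in states 3 to 6 and also in state 11. The Celsr genes, of the same receptor class, had starts in states 9 (Celsr2) and 11 (Celsr3), with Celsr1 read by its record ends, in states 8 and 6. All 3 had a run in the window, of 2.8 kb for Celsr1, 3.6 kb for Celsr2 and 1.6 kb for Celsr3.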

How the data were processed

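Per the file headers, the authors deposited a track named for HSCs with states ordered by emission; the deposited value of each segment is a state number, a category with no order or unit. The file names alone give ChromHMM, WT and H3.3. Per the submitters' processing notes, HOMER, MACS2, Bowtie2, deepTools and the build mm10 were used. What entered the model, its emission values, pooling and depth are not stated in any label or header. A dense and an expanded version held the same state in every bin (0 bins differed).

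Bins were read with Python 3.11.15 and numpy 2.4.6. Gene records were those RefSeq lists for GRCm38.p6, without genes that begin in the first 3 Mb of a chromosome other than Y. Windows were the gene record with 10 kb on each side. Starts came from the RefSeq upstream sequences; where a gene has several, any start in a class counts. The planned rule named every receptor (1 is not reported here, though counts include it), described the longest runs and domains in full, and ranked genes by likeness to Adgrg1. Adgre5 and Adgre1 had been planned for printing and have no sequence here. Members, lists and classes were chosen with earlier results of these data known. No test was made, since 1 map has no replicates. The steps that set windows, segments and the state at a position were tested on a small simulated map, along with a finder of whole runs. The loading of the map, gene records and starts was not part of that test.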

Additional observations from a re-analysis of the deposited data

How the results depend on the processing

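Over 9 results, 37 alternatives were run, and 29 met the rule for no change. The rule was a count within 1.5 times, a share within its 95% Wilson interval over bins, or exactly the same run length. The interval covers counting error only and treats neighbouring bins as independent. The other 8 moved. Some of the 29 could not have moved. The expanded version holds the same state in every bin, and bridging gaps cannot change how many receptors have a run. The count of 29 therefore overstates how far the results were tried. All genes were recomputed only for the record ends, so for the other settings the receptors' values alone are given. Reading either record end in place of the start gave 14 receptors in state 18, in place of 4, since it adds 7 receptors and the 3′ ends. With no flank, the share of window bases in states 3 to 6 was 1.02%, in place of 1.31%, and that in state 18 was 52.7%, in place of 50.9%. With a flank of 50 kb, states 3 to 6 covered 2.04%, states 9 to 11 16.6%, in place of 18.2%, and state 18 49.1%. The median longest run was then 2 kb in place of 0 kb. A run touched the window of 19 receptors in place of 13, a change that still counts as within 1.5 times. The wider windows reach more neighbouring genes, so the count of receptors with a run depends on the flank. Leaving out segments of 1 bin gave 1.14% for states 3 to 6. The Adgrg1 run was 14 kb with gaps of 1 bin bridged and with no flank. Neither setting could change it, since the run lies inside the record and the gaps beside it are longer than 1 bin.

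No paired analysis was possible because the map holds no values per library. Depth is unknown, so no state can be given an error.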
